A study of Mus musculus with 2 samples.

Results

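Broad accessible regions, of 2000 bp or more, were described in mouse CFU-E, a red cell progenitor, from lists of ATAC-seq peaks. Overlapping or touching records of the series list thresholded on the irreproducible discovery rate (IDR, a measure of how well a peak repeats between peak sets) were merged, and 36 of 24394 merged regions reached 2000 bp, or 0.148%. The 36 regions held 241 of 50003 records and 78.05 kb, which is 0.481% of the 16.2 Mb that all regions covered. Each region was 1 interval in the list, repeated once per summit, so that its number of records is its number of summits. The 36 regions were chosen by their width in this list, and width, summits and fold of the series list are therefore given as descriptions without a test.

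The study is 1 group of 2 libraries, with no treatment, genotype or time to compare. Each library was made from 50000 erythroid progenitors (CFU-E), isolated from male adults of the C57BL/6J strain at 5 to 6 weeks of age and used as primary cells. The labels number the libraries as biological replicates 1 and 2, list a biosample for each and give 1 donor identifier for both, and they do not show whether the cells came from separate animals. The study's peak lists were called for each library and for both together, and the read depth behind a list is unknown from its peaks.

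CFU-E are committed red cell progenitors that depend on erythropoietin. ATAC-seq inserts sequencing adapters where nucleosomes leave DNA open, and a peak marks a promoter, an enhancer or another site held open by bound proteins. Most such sites are narrow. A wide one holds several neighbouring stretches of open DNA, as where a pair of promoters lies close together or where several factors bind over a long stretch. In red cell progenitors GATA1, a zinc finger factor that binds GATA, works with TAL1, which binds a CTG-type E-box a fixed distance away. KLF1, SP1 and related factors bind GC-rich boxes of promoters, and NFY binds CCAAT.

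The sequence at the strongest summit, the record with the highest fold, is shown first for the 5 regions that lay away from annotated promoters, because each of the 5 held a GATA match there. The windows are 151 bases of the plus strand of GRCm38.p6 (mm10), centred on the summit. Capitals mark matches to any of the searched motifs on either strand, here AGATAA, the pair of CTG and AGATAA with 8 bases of any kind between them, the KLF or SP box CCNCNCCC, the NFY box CCAAT and, in the Gm20388 window, the RUNX box TGTGGTT. On the plus strand a match of the other strand appears as its reverse complement.
Tg/Sla intron, chr15:66826308-66826458: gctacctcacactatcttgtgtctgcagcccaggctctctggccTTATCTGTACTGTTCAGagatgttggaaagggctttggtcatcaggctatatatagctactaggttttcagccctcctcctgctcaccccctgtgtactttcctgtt
Vps13d intron, chr4:145034573-145034723: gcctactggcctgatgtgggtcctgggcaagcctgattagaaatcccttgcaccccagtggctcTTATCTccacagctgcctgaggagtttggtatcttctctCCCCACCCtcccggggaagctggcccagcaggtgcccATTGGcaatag
Gm20388 intron, chr8:122719801-122719951: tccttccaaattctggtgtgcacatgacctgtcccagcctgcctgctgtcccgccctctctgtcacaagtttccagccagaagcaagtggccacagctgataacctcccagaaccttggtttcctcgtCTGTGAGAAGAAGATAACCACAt
Rgs6 intron, chr12:83073339-83073489: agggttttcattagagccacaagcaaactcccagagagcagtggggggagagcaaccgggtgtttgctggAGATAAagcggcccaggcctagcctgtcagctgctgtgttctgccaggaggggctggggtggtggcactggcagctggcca
Intergenic, near 9030025P20Rik, chr17:14994273-14994423: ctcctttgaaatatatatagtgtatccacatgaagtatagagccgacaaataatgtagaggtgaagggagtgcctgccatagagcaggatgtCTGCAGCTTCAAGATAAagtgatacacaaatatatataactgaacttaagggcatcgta

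The next windows show promoters of the group, Syngr1 and Tcp11l2 for the GATA matches at their strongest summit, Cep57/Fam76b for its 3 CCAAT boxes between divergent genes, and Kansl1l for its GC-rich boxes. The SP box GGGGCGGGG was searched as well and overlaps CCNCNCCC on the other strand, so overlapping matches run together in capitals.
Syngr1 promoter, chr15:80097151-80097301: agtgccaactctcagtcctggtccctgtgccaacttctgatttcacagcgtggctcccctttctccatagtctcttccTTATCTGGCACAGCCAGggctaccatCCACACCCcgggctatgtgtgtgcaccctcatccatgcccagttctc
Tcp11l2 promoter, chr10:84576117-84576267: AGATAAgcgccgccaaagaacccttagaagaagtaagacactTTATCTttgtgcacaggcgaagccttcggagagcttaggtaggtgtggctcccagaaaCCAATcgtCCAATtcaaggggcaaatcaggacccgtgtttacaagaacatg
Cep57/Fam76b promoter, chr9:13827414-13827564: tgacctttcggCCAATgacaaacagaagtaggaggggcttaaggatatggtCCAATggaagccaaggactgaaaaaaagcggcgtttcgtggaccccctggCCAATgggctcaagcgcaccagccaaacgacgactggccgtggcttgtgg
Kansl1l promoter, chr1:66817626-66817776: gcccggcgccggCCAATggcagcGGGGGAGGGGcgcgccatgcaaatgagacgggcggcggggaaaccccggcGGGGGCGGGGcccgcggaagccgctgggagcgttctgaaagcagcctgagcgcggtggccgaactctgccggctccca

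Widths of the 36 regions lay between 2001 and 2768 bp, with a median of 2125 bp and an interquartile range of 2043 to 2235 bp. All 24394 regions had a median of 591 bp, and those under 2000 bp a median of 590 bp. The widths formed the end of a tail without a gap at the limit. It held 14 regions between 2000 and 2099 bp beside 29 of 1900 bp or more just below the limit, and 1 region above 2500 bp. On the near side of the limit, the narrowest members were Cep57/Fam76b with 2001 bp, Gm12915 with 2002 bp, Serinc5 with 2003 bp and Ap5b1 with 2034 bp. Just outside it were the promoter regions of Kat6a with 1997 bp and Atad2b with 1996 bp and a pair of intronic regions on chromosomes 19 and 4 with 1994 and 1992 bp.

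**Figure D1:**
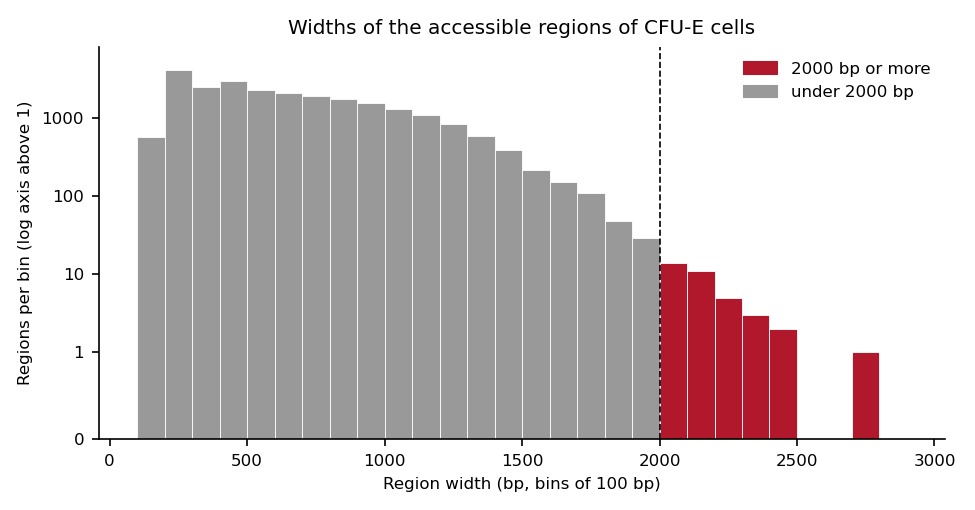
Number of merged regions per 100 bp of width in the series list, on an axis that is linear below 1 and logarithmic above it, with the 36 regions of 2000 bp or more in red and the others in grey. The dashed line marks 2000 bp, where 14 regions stood in the first bin above it and 29 in the last bin below it, with no gap at this limit. The bins that start at 2500 and 2600 bp held 0 regions.

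The widest region, at chr15:66825157-66827924, was 2768 bp wide with 8 summits and lay in introns of Tg, the thyroglobulin gene, and of Sla, which encodes a Src-like adaptor of blood cells and is transcribed from the other strand inside Tg. Its midpoint was 5.11 kb from the nearest protein-coding start, that of Sla. Sfmbt1, a Polycomb-related MBT-domain gene, followed with 2458 bp and 8 summits at its promoter, and the region of Pfkfb2 and Yod1 had 2424 bp and 9 summits, more than any other region of the list. Pfkfb2 encodes a kinase and phosphatase that sets fructose 2,6-bisphosphate, and Yod1 a deubiquitinase. An intron of Vps13d, a lipid transfer protein, carried 2393 bp and 8 summits.

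The next regions by width stood at promoters. Sinhcaf, a subunit of the SIN3-HDAC complex, had 2337 bp, Tmem120b had 2321 bp and Ier3 with Flot1 had 2297 bp. Nucb1, a calcium-binding Golgi protein, had 2245 bp, the long noncoding RNA gene Gm49024 had 2240 bp, Kansl1l had 2233 bp and Syngr1, a synaptogyrin, had 2230 bp. The twelfth region by width, with 2191 bp on chromosome 17, was the only one with no GENCODE gene over its midpoint and no start within 1 kb.

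Summits numbered 4 to 9 per region, with a median of 7 in the 36 regions and a median of 2 in regions under 2000 bp. Cep57/Fam76b held 4 summits, 3 regions held 5, 12 held 6, 11 held 7, 8 held 8 and Pfkfb2/Yod1 held 9. Regions with 8 summits included those of the Tg/Sla and Vps13d introns and of Sfmbt1, Nucb1, Kansl1l, Syngr1 and Abcb4. The density of summits was close to that of narrower regions. The 36 regions held a median of 3.01 summits per kb, against 3.13 in regions of 1500 bp to under 2000 bp and 3.22 in regions under 2000 bp. Neighbouring summits of the 36 regions lay a median of 303 bp apart (interquartile range 245 to 387 bp, 205 gaps), against 287 bp in regions of 1500 bp to under 2000 bp and 268 bp in all regions under 2000 bp.

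**Figure D2:**
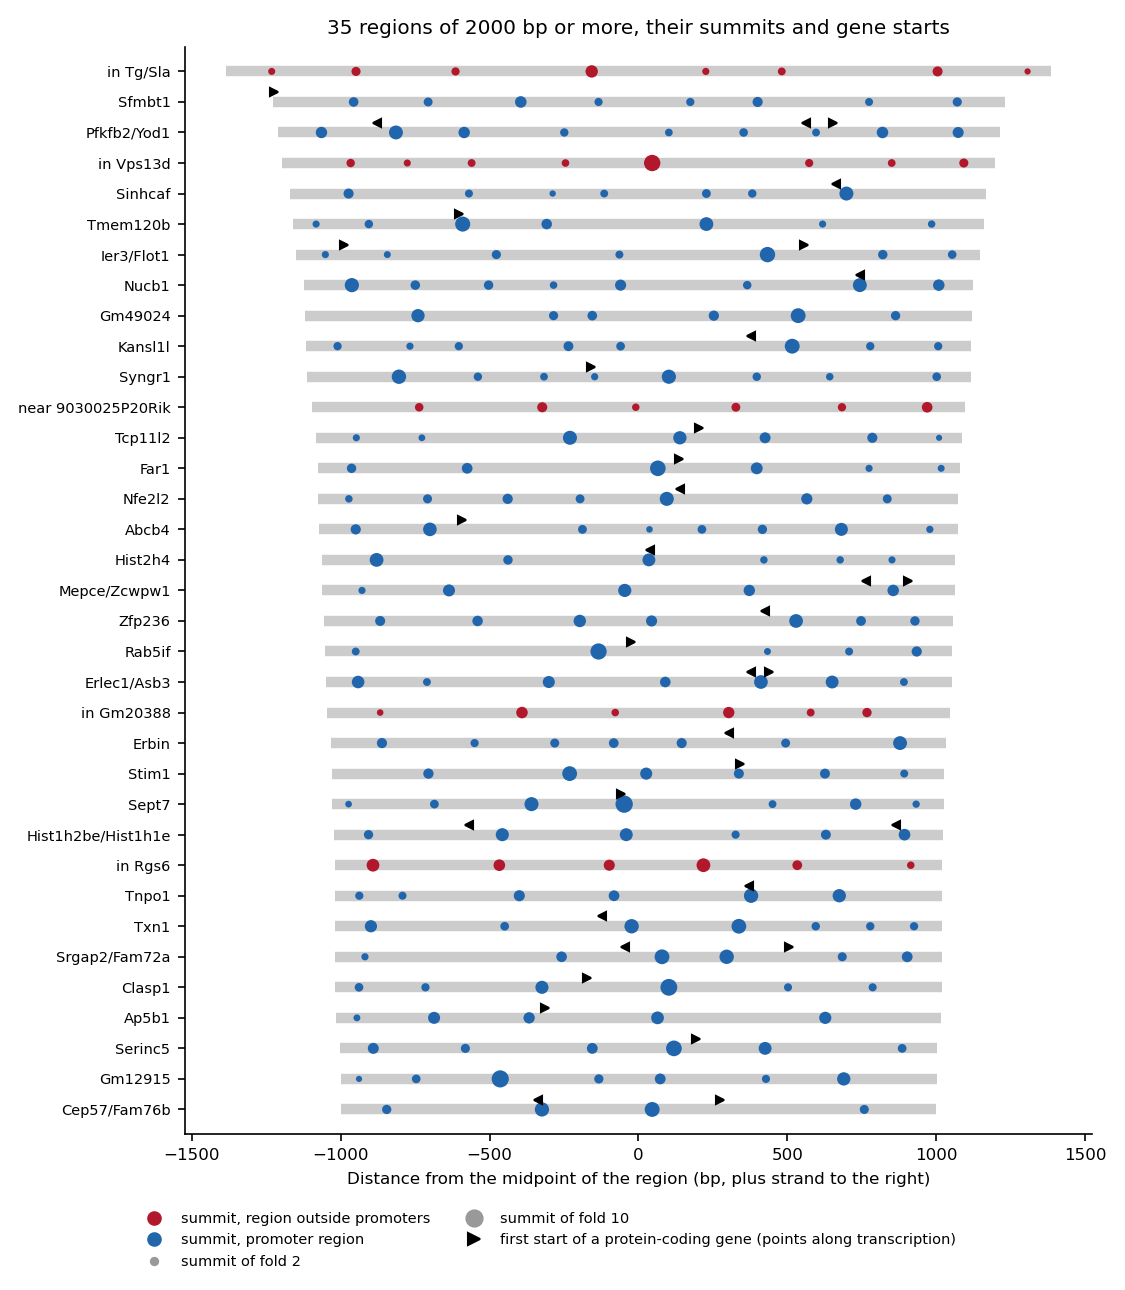
The regions of 2000 bp or more, 35 of the 36, as grey bars in order of width, to scale, with the distance from each region's midpoint in bp on the horizontal axis. Circles are summits with an area proportional to fold, red in the 5 regions outside promoters and blue in those at promoters. Triangles mark the first start of each protein-coding gene inside the region. Summits spread over the whole width, from 4 in Cep57/Fam76b to 9 in Pfkfb2/Yod1, and starts lay anywhere from the edge (Sfmbt1) to the middle (Rab5if).

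The fold of a record is the authors' ratio of signal over local background, and its values are compared only within a list. The highest fold of a region had a median of 7.84 in the 36 regions (range 4.35 to 11.5), against 9.67 in regions of 1500 bp to under 2000 bp and 7.57 in regions under 2000 bp. Sept7, a septin, ranked first among the 36 with a fold of 11.5, which placed it 4702nd of 24394. Others with a high fold were Gm12915 with 11.3, Clasp1, a microtubule plus-end protein, with 10.9, the Vps13d intron with 10.3, Rab5if with 10.1, Serinc5 with 9.46 and Far1, a fatty acyl-CoA reductase, with 9.37. The lowest were the chromosome 17 region with 4.35, the Gm20388 intron with 5.12, Sfmbt1 with 5.15, the Tg/Sla intron with 5.90 and Ap5b1, an adaptor complex subunit, with 6.25. Of the 36 regions, 3 stood among the 6098 regions with the highest fold (8.33%, exact 95% interval 1.75 to 22.5%), against 175 of 549 regions of 1500 bp to under 2000 bp (31.9%) and 6095 of 24358 under 2000 bp.

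The median fold over the summits of a region gave a different order from its highest fold. It had a median of 3.30 in the 36 regions, against 4.01 in regions of 1500 bp to under 2000 bp and 5.43 in regions under 2000 bp. The highest fold was more than 2 times the median fold in 21 of the 36 regions. In the Vps13d intron 1 summit of 10.3 stood among others between 1.93 and 3.19. Rab5if had the lowest median, 2.42, beside its highest fold of 10.1, and Syngr1 had 2 summits of 7.96 and 7.75 among others between 2.02 and 2.87. At the other end, Ap5b1 and Erlec1/Asb3 had medians of 5.57 and 5.59. In 19 of the 36 regions at least 2 summits reached 80% of the highest fold, and in 2 regions at least 3 did.

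By −log10 p, the authors' measure of evidence for a record, the 36 regions ranked higher in the list than by fold. The highest value per region had a median of 124.7 in the 36 regions (range 24.1 to 216.9), against 137.5 in regions of 1500 bp to under 2000 bp and 55.97 in regions under 2000 bp. Of the 36, 22 stood among the 6098 highest regions by this measure (61.1%, exact 95% interval 43.5 to 76.9%). Gm12915 had the highest value, 216.9, at rank 534, and Sfmbt1 and the chromosome 17 region had the lowest, 24.1 and 27.1. Both fold measures were lower in the 36 regions, with medians of 7.84 and 3.30, than in regions of 1000 to 1249 bp, with 11.2 and 5.37. Width and fold come from the same records, so that this is a description of the list.

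**Figure D3:**
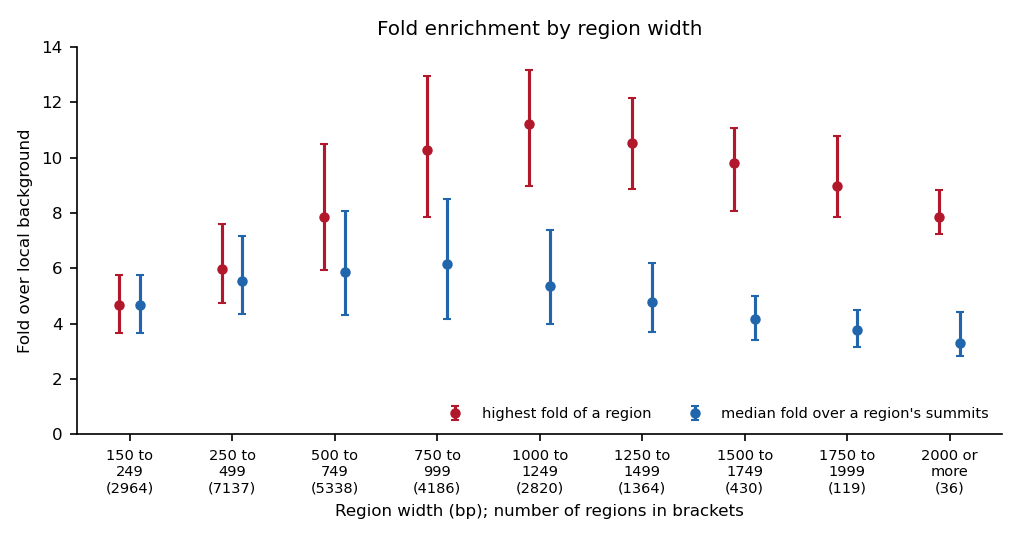
Fold over local background by region width in bp, with the number of regions in brackets, as the median (point) and interquartile range (line) of the highest fold of a region (red) and of the median fold over its summits (blue). The red points are highest at 1000 to 1249 bp with 11.2 and stand at 7.84 for 2000 bp or more, and the blue points are highest at 750 to 999 bp with 6.14 and stand at 3.30.

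By its midpoint, a region was classed as promoter when an annotated start of GENCODE M21 lay within 1 kb. Of the 36 regions, 31 were promoters (86.1%, exact 95% interval 70.5 to 95.3%), 4 were intronic, 1 was intergenic and none was exonic, which allows a share of up to 9.74%. Of 549 regions of 1500 bp to under 2000 bp, 477 were promoters (86.9%, interval 83.8 to 89.6%), and of 24358 regions under 2000 bp, 12323 were (50.6%). In regions under 2000 bp whose highest fold fell within the interquartile range of the 36 regions (7.24 to 8.82), 1599 of 3647 were promoters (43.8%). The intervals cover counting error over regions only. None of the 36 regions lay on chromosome X or Y, where 615 regions under 2000 bp lay (2.53%), and the 36 regions were on 18 of the 21 chromosomes.

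Protein-coding genes with a start inside one of the 36 regions numbered 37 of 21911, or 0.169%. They were spread over 29 regions. Noncoding genes with a start numbered 8, of which 6 lay in these 29 regions. A single protein-coding gene was the rule, and 7 regions held more. Of the 7, 5 held divergent genes, on opposite strands. These were Pfkfb2 and Yod1, with the predicted gene Gm29427 as a further start, Mepce, the methyltransferase that caps 7SK RNA, and Zcwpw1, a reader of histone methylation, Erlec1, a lectin of the endoplasmic reticulum, and Asb3, a SOCS-box protein, Srgap2 and Fam72a, and Cep57, a centrosomal protein, and Fam76b. The other 2 held genes on 1 strand, Ier3 with Flot1 and Hist1h2be with Hist1h1e. RefSeq, a second gene annotation, places a gene start of Yod1 but none of Pfkfb2 in their region. Counted within 1 kb of the midpoint, starts of protein-coding genes on both strands were present in 5 of 31 promoter regions (16.1%, interval 5.45 to 33.7%), against 115 of 477 promoter regions of 1500 bp to under 2000 bp (24.1%) and 1307 of 12323 under 2000 bp (10.6%).

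Only starts inside a region were counted, so each region lies on both sides of them by selection. The upstream and downstream distances from a first start together make up the region's width. From the first, most upstream start of a protein-coding gene inside the region, the region extended a median of 963 bp upstream and 1191 bp downstream. More lay upstream in 15 genes and more downstream in 22. Starts outside the region were not counted, and the start of the gene record lay in a region of 2000 bp or more for 33 of the 37 genes. Sfmbt1 marked one extreme, with 4 bp upstream of its first start and its 4 starts spread over 1642 bp. Sinhcaf had 10 starts over 1744 bp, and Nucb1 had its strongest summit 1707 bp downstream of its first start. Ier3, an immediate early gene of stress and growth signals, lay wholly inside its region, with its 1240 bp, and the pseudogene Gm11398 of 320 bp lay wholly inside the region of Hist1h2be and Hist1h1e. Exons took up a median of 31.1% of the promoter regions of 2000 bp or more, against 33.7% of those under 2000 bp. They took up 92.3% of the region of Hist1h2be and Hist1h1e and 77.75% of that of Hist2h4.

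The genes at the promoter regions had varied roles. Nfe2l2, the factor that turns on antioxidant genes, had a region of 2149 bp, and Txn1, thioredoxin, one of 2041 bp. Mepce had 2124 bp. Stim1, the calcium sensor of the endoplasmic reticulum, had 2055 bp, Tnpo1, a nuclear import receptor, 2041 bp, Abcb4, a phospholipid transporter, 2145 bp, and Serinc5, a membrane protein, 2003 bp. Hist2h4 and Hist1h1e encode a core and a linker histone. Of the remaining regions Tcp11l2 had 2170 bp, Far1 2156 bp, Zfp236 2110 bp, Rab5if 2103 bp, Erlec1/Asb3 2102 bp, Erbin 2065 bp, Sept7 2055 bp, Srgap2/Fam72a 2039 bp, Clasp1 2037 bp and Ap5b1 2034 bp.

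The genes best known from red cells were not among them. No gene of 7 erythroid lists (globins, haem synthesis, iron, membrane, erythropoietin signalling, regulators and clearance) started in any of the 36 regions, and none of 47 ribosomal protein genes did. Regions of 1500 bp or more numbered 585 of 24394 (2.4%) and held starts of 621 of 21911 protein-coding genes (2.83%). Among them, the erythroid lists held Hba-a1 with a region of 1675 bp, Slc4a1, the anion exchanger of the red cell membrane, with 1656 bp, Slc40a1, the iron exporter, with 1597 bp, Hba-a2 with 1575 bp, Bcl2l1, an anti-apoptotic gene, with 1536 bp and Bnip3l, a mitophagy receptor, with 1516 bp. None of 13 haem synthesis genes and none of 29 regulators reached 1500 bp. Of the other lists, 2 of 37 histone genes (Hist1h1e and Hist2h4) and 1 of 35 immediate early genes (Ier3) started in a region of 2000 bp or more, and Hist1h2be, a histone gene outside the list, did too. At 1500 bp or more, starts were held by 7 of 30 chromatin regulators (23.3%), 2 of 10 globin genes, 5 of 37 histone genes (13.5%), 4 of 32 splicing and RNA-binding genes (12.5%), 3 of 34 cell cycle genes (8.82%) and 3 of 35 immediate early genes (8.57%), and the other lists with such a gene had shares of 3.85 to 7.69%. No gene of the 5 lists for other blood lineages (stem and progenitor, megakaryocyte, granulocyte and monocyte, macrophage, lymphoid) started in a region of 1500 bp or more, and only 12 of their 115 genes had a start in a region of any width, against 43.5% of all protein-coding genes. Beside the backgrounds of 0.169% at 2000 bp and 2.83% at 1500 bp, nothing is read from these counts about the lists.

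Over whole regions, base composition was close to that of narrower promoters. Promoter regions of 2000 bp or more had a median GC content of 58.8%, against 59.2% in promoter regions under 2000 bp. Their ratio of observed to expected CpG had a median of 0.711, against 0.715. Of the 31, Syngr1 had the lowest ratio, 0.267, and Erbin the highest, 1.03. The 4 intronic regions had ratios from 0.158 to 0.310, against a median of 0.220 in regions outside promoters under 2000 bp. The chromosome 17 region had 0.772, near the promoter median. In the central 1 kb of promoter regions, a window of equal length, the medians of GC content and ratio were 60.6% and 0.764. They were 62.7% and 0.806 at 1500 bp to under 2000 bp, and 58.0% and 0.711 under 2000 bp.

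The chromosome 17 region differed in a further way. It lay at chr17:14992284-14994474, 13.9 kb from the nearest GENCODE protein-coding start, that of 9030025P20Rik. RefSeq places the start of a noncoding RNA gene, Gm3255, inside it, which would put it in the promoter class. Each of its 2160 words of 32 bases occurred elsewhere in the reference. A copy of its full length of 2191 bp lay at chr17:15023652-15025842, where the series list held 902 bp of peaks. A further stretch of 2081 bp at chr17:14960810-14962890 held 1792 matching words, and the series list held 237 bp of peaks there. In the other 35 regions at most 9.49% of the words (Hist1h2be/Hist1h1e) occurred more than once, and the median over the 36 regions was 0.0%. Reads from a repeated sequence cannot be placed uniquely, how the authors treated such reads is not given in the sources used here, and their part in this region was not tested.

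The intronic regions lay 5.11 kb (Tg/Sla), 16.4 kb (Vps13d), 21.2 kb (Gm20388) and 26.2 kb (Rgs6, a regulator of G-protein signalling) from the nearest protein-coding start. The start nearest to the Gm20388 intron was that of Cbfa2t3, which encodes a corepressor known from complexes with GATA1 and TAL1. Which gene an intronic region acts on was not measured.

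Within 100 bp of the strongest summit, AGATAA occurred in 5 of the 5 regions outside promoters (exact 95% interval 47.8 to 100%), against 32 of 72 such regions of 1500 bp to under 2000 bp (44.4%, interval 32.7 to 56.6%) and 3242 of 12035 under 2000 bp (26.9%). Leaving out the chromosome 17 region, it occurred in 4 of the 4 intronic regions. The pair of CTG and AGATAA, a subset of the AGATAA matches, occurred in 3 of the 5 (interval 14.7 to 94.7%) and in 2 of the 4 introns, against 8 of 72 (11.1%) and 484 of 12035 (4.02%). In the Rgs6 intron the match lay 2 bp from the strongest summit and in the Vps13d intron 8 bp, in Tg/Sla 28 bp, on chromosome 17 31 bp and in Gm20388 67 bp. Gm20388 held a second pair, 4 bp from its second summit by fold (4.95, beside 5.12 at the first). Counted over all 34 summits of these 5 regions, 11 had AGATAA within 100 bp (32.4%), and 4 had the pair.

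At the strongest summits of the 31 promoter regions, AGATAA occurred in 3, Syngr1, Tcp11l2 and Nucb1 (9.68%, interval 2.04 to 25.8%), against 21 of 477 promoter regions of 1500 bp to under 2000 bp (4.40%) and 804 of 12323 promoter regions under 2000 bp (6.52%). Syngr1 had the CTG and GATA pair 6 bp from its strongest summit, at -644 bp from its only GENCODE start inside the region. Its second summit by fold, 7.75, lay on the other side of that start. RefSeq placed no gene start of Syngr1 in the region, and whether the GENCODE start is used was not measured. The same holds for Stim1, Ap5b1, Pfkfb2 and Gm49024 in their regions. CCAAT occurred in 15 of the 31 (48.4%, interval 30.2 to 66.9%), against 170 of 477 (35.6%) and 3933 of 12323 (31.9%). CCNCNCCC occurred in 19 (61.3%), against 63.3% and 57.8% in the same classes, and GGGGCGGGG in 9 (29.0%, interval 14.2 to 48.0%), against 21.6% and 16.2%. The ETS box CCGGAAG occurred in 3 (9.68%), against 16.4% and 14.9%, and the palindromic NRF1 consensus in 3 (interval 2.04 to 25.8%), against 2.10% and 1.43%. The core of the CTCF consensus occurred in 1 of the 31, Ap5b1 (3.23%), against 2.52% and 5.41%, and in 0 of the 5 regions outside promoters, which allows a share of up to 52.2%, against 1 of 72 outside promoters of 1500 bp to under 2000 bp and 18.6% of those under 2000 bp. The E-box CACGTG occurred in 3 of the 31 promoter regions (9.68%), against 7.55% and 7.52% in these classes, the AP1 box TGANTCA in 1 (3.23%), against 16 of 477 and 443 of 12323, and the cAMP response box TGACGTCA in 1, against 3.77% and 3.04%. The RUNX box TGTGGTT occurred in 0, which allows a share of up to 11.2%, against 2.10% and 2.43%. A match is a description of the sequence, and regions of 1 list are not replicates, so no test was made.

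**Figure D4:**
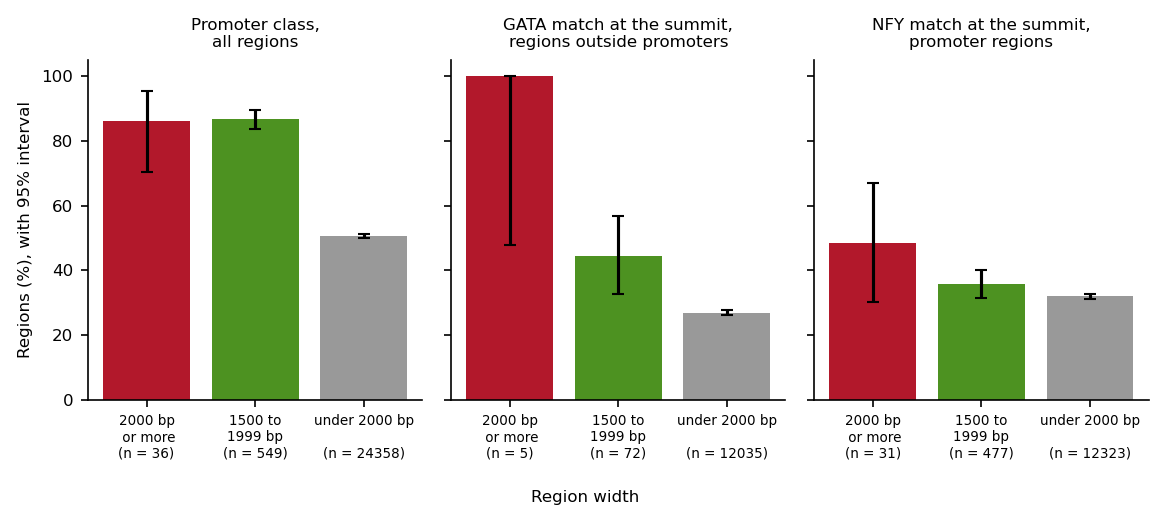
Share of regions in percent for widths of 2000 bp or more (red), 1500 bp to under 2000 bp (green) and under 2000 bp (grey), with exact 95% intervals and the number of regions below each bar, for the promoter class (left), for AGATAA within 100 bp of the strongest summit outside promoters (middle) and for CCAAT at promoter summits (right). The promoter share was 86.1% and 86.9% in the red and green classes, and the middle red bar rests on 5 regions.

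In the lists called from a single library, fewer regions reached 2000 bp. The pooled series list held 36, replicate 1's own list 10 and replicate 2's own list 8. Of the 10, 8 overlapped one of the 36, and all of the 8 of replicate 2 did. Counting the widest single region at each of the 36, 4 reached 2000 bp in both libraries and 12 in either. The 4 were Nfe2l2 with 2139 bp in replicate 1 and 2131 bp in replicate 2, Hist1h2be/Hist1h1e with 2031 and 2036 bp, the Rgs6 intron with 2024 and 2032 bp, and the Gm20388 intron with 2067 and 2000 bp. Reaching 2000 bp in both libraries chose these 4, so their similar widths follow from the choice and are no separate result.

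At other places the widest single region differed between the libraries. Tmem120b had 2317 bp in replicate 1 and 1920 bp in replicate 2, Sept7 2020 and 1045 bp, and Zfp236 2111 and 647 bp. In the other direction, the Tg/Sla intron had 1319 bp in replicate 1 and 2006 bp in replicate 2, Abcb4 1093 and 2099 bp, Txn1 1572 and 2001 bp, and Tnpo1 1892 and 2009 bp. Both libraries held a region at each of these places. Replicate 1 held 2 pieces at Tg/Sla, Abcb4 and Txn1, which together covered 65.5%, 96.2% and 90.8% of the pooled region. Replicate 2 covered 72.5%, 97.9% and 98.0% of them in 1 piece. Sept7 and Zfp236 were 1 piece in each library, with 98.3% and 99.4% covered in replicate 1 and 50.9% and 30.7% in replicate 2. At Ier3/Flot1, the widest single regions were 1013 bp in replicate 1 and 484 bp in replicate 2, and the lists covered 44.1% and 21.1% of the pooled region.

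A single library covered most of a typical region. The share of a region's bases inside a region of the library's own list had a median of 89.3% in replicate 1 and 78.7% in replicate 2. It was higher in replicate 1 for 21 regions, higher in replicate 2 for 13 and equal for 2. The lowest shares in either library, apart from the absent regions below, were those of Ier3/Flot1, of Zfp236 with 99.4% in replicate 1 and 30.7% in replicate 2, of Kansl1l with 65.2% and 40.6%, of the Vps13d intron with 64.5% and 42.0%, of Sinhcaf with 44.2% and 45.8% and of Rab5if with 74.2% and 45.4%. In 1 piece were 21 of the 36 regions in replicate 1 and 27 in replicate 2. The number of summits summed over the 36 was 194 in replicate 1 and 171 in replicate 2, against 241 in the pooled list.

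Sfmbt1 and the chromosome 17 region were absent from both libraries' own IDR lists and are the 2 regions counted as equal above. Both had the lowest −log10 p of the 36 and were present in the looser overlap lists of each library, where the widest single piece of Sfmbt1 was 582 bp in replicate 1 and 916 bp in replicate 2. The conservative list, made from the true replicates, held 35 of the 36 and lacked Sfmbt1. Its sequence was not duplicated, with 0 of 2427 words repeated, so that the measure that marks the chromosome 17 region did not mark this one. Among the 34 regions present in both, the highest fold of Sept7 was 11.1 in both lists, that of Clasp1 9.60 in replicate 1 and 11.4 in replicate 2, and that of the Tg/Sla intron 5.88 and 5.98. Each list has its own scale, so these values are set side by side only.

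**Figure D5:**
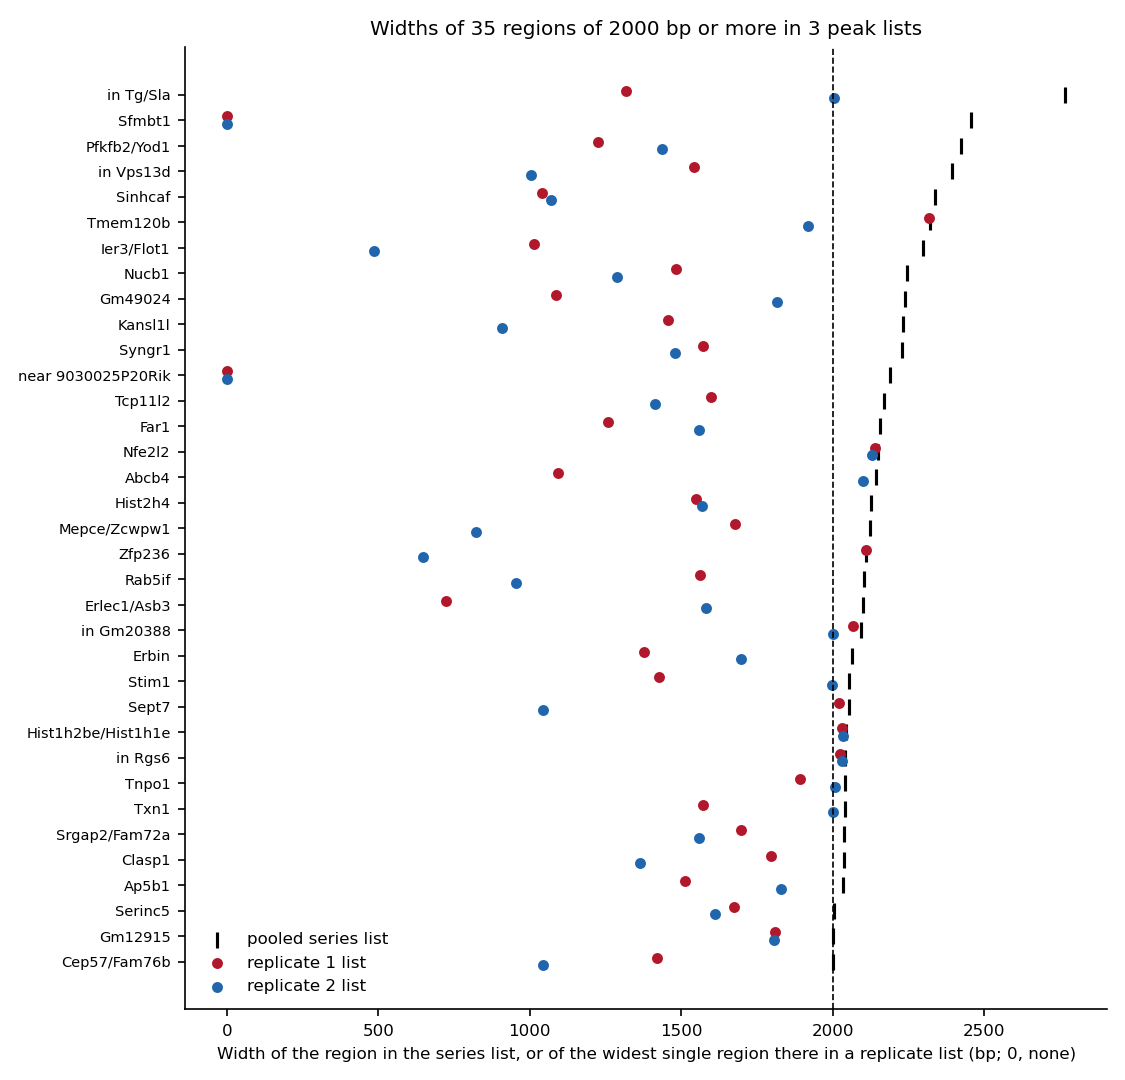
Width of 35 of the 36 regions in the pooled series list (black bars) and of the widest single region overlapping it in the list of replicate 1 (red) and of replicate 2 (blue), in bp, in order of pooled width, with 0 for none. The dashed line marks 2000 bp, which 7 red points and 8 blue points reach, and Sfmbt1 and the chromosome 17 region (near 9030025P20Rik) have none in either library.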

How the data were processed

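ATAC-seq libraries of mouse CFU-E cells numbered 2. The authors deposited peak lists in mm10 coordinates, per the file names and labels, for each library and for both together, with the aligner and peak caller not given in the sources used here. In those lists the score is the authors' 0 to 1000 peak score, the fold is their ratio of signal over local background and −log10 p was deposited as such. The series lists draw on both libraries and carry no error of their own.

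Records of a list that overlap or touch were merged here, and positions are 1-based. Sequence came from GRCm38.p6, gene positions from GENCODE M21 and, for 1 check, from RefSeq. A promoter had its midpoint within 1 kb of any transcript start. Motifs were searched on both strands within 100 bp of the strongest summit, and 32-base words were counted over the assembled chromosomes. Python 3.11.15, pandas 2.3.3, numpy 2.4.6, scipy 1.17.1, pysam 0.24.0 and matplotlib 3.10.9 were used, and merging, distances and motif search were tested on simulated data. Intervals are exact binomial intervals at 95%. Regions were named by rule, as the widest, the strongest and weakest, those with most summits or genes, those outside promoters and those nearest to the limit. Of the 36 regions, 1 is counted but not reported by name here. The regions, gene lists and comparisons were chosen with earlier results of these data known. Alternatives were other peak lists, joining distances, width limits, score limits, promoter windows, starts and motif windows.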

Additional observations from a re-analysis of the deposited data

How the results depend on the processing

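Of 66 recomputed values, 44 stayed within their limits and 22 did not. A change of direction was not assessed. The number of regions, with 36 in the series list, was 36 in the conservative list and 37 in each overlap list. Records with a score of at least 830 gave 36. The lowest score in the 36 regions was 841, so this limit could not remove any of them. Its values, counted among the 44, are therefore no check. The same holds for GATA matches outside promoters within 200 bp or without the chromosome 17 region, which could only be 100%. A promoter window of 2 kb, added RefSeq starts and starts within 1 kb of a region could only keep or raise a value. Both overlap lists of the series held all 36 regions at full width, so their values are no independent check. The calls of a single library ranged from 8 to 10 regions, with promoter shares from 62.5% to 70.0%, genes with a start from 6 to 8 and median folds from 6.94 to 7.24, and the medians of their summits were from 6.5 to 7. Joining records up to 100 bp apart gave 61 regions and 60 genes. A limit of 1500 bp gave 585 regions, 621 genes, a median of 5 summits and a median fold of 9.54. A limit of 2500 bp left 1 region, the Tg/Sla intron, with a promoter share of 0.0%, 0 genes, 8 summits and a fold of 5.90. A promoter window of 500 bp lowered the promoter share to 69.4%, the median over all records of a region lowered the fold to 3.30, and matching on fold lowered the promoter share of regions under 2000 bp to 43.8%. For the change of calls between single libraries and the pooled list the cause was not tested. Alternatives chosen after seeing the data were the RefSeq starts (32 of 36 promoters), the overlap lists of each library (median cover 93.1% and 86.9%), GATA matches without the chromosome 17 region (100%) and leaving out the regions absent from both libraries (34 regions, promoter share 88.2%, median fold 7.93). No paired analysis was possible because the study has 1 group. The read depth behind the lists is unknown.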

Other observations

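One region of 2902 bp, wider than any of the 36, was in the conservative list and both overlap lists of the series but not in the series list thresholded on IDR. It lay at chr15:76102616-76105517 over Eppk1, the gene of epiplakin, and had 10 summits, a highest fold of 3.23 and a −log10 p of 14.9. Of its 2871 words of 32 bases, 94.4% occurred more than once in the reference. Replicate 1's list held 2033 bp of it with a fold of 2.87.

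The other region of 2000 bp or more that replicate 1 held outside the 36 lay over Ppp2r3d at chr9:124422854-124424861, with 2008 bp and 7 summits, and the series list split it into regions of 1122 and 861 bp. None of its words was repeated.

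Of 549 regions of 1500 bp to under 2000 bp, 22 had more than 10% of their words repeated (4.01%), against 1 of the 36 regions of 2000 bp or more (2.78%).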
